A study of Mus musculus with 15 samples.

Results

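RNA sequencing was used to follow ERK feedback and output genes in E0771 cells, a mouse mammary carcinoma line, that carried either 1 of 4 forms of Malt1 or an empty vector. The set held 10 genes chosen by symbol from the 55571 gene rows of the count table: Dusp4, Dusp5, Dusp6, Spry2, Spry4, Spred1, Phlda1, Etv4, Etv5 and Egr1. The 5 groups were Malt1_WT (the wild type), Malt1_PD, Malt1_V87R, Malt1_L88D and the vector control, with 3 libraries each. All came from the same line, and the labels name no treatment and no deletion of its endogenous Malt1 gene. The labels do not spell out PD. Its values were taken from the columns whose name gives a cysteine change in MALT1's protease domain, since Malt1_PD was the 1 construct without columns of its own name. V87R and L88D change neighbouring residues of the N-terminal death domain, through which MALT1 binds BCL10. The labels do not say whether each construct was studied as pooled or clonal cells, so differences between sublines and effects of a construct cannot be told apart. Nor do they say that libraries came from separate cultures, so the spread behind the p-values may be technical.

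MALT1 is a scaffold and protease of the CARD-BCL10-MALT1 complex, best known upstream of NF-kB and JNK signalling in lymphocytes. The extracellular signal-regulated kinases ERK1 and ERK2 end a cascade that runs from receptors through RAS, RAF and MEK, and they switch on transcription of genes that in turn restrain the cascade. Dual-specificity phosphatases remove the activating phosphates from ERK, Sprouty and Spred proteins act on RAS and RAF, and the transcription factors ETV4, ETV5 and EGR1 carry the output further. The mRNA levels of such genes are widely read as a proxy of ERK activity, but phosphorylation itself was not measured here.

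Total counts per library ran from 15471746 to 21458457, and the 10 genes took from 0.0718% to 0.107% of them. Levels are given as CPM, counts per library scaled to 1e6 with TMM normalization, and ± marks the SD over 3 libraries unless SE, the standard error of a log2 fold change, is named. Gene positions are on GRCm38. Malt1 reads averaged 202 ± 7.97 CPM with Malt1_WT, 250 ± 8.87 CPM with Malt1_PD, 280 ± 1.35 CPM with Malt1_V87R and 252 ± 6.74 CPM with Malt1_L88D, against 28.2 ± 1.92 CPM with the vector. The epithelial keratin gene Krt8 (86.3 to 122 CPM over the libraries) and Epcam (5.10 to 10.5 CPM) were present. Krt18 and the cadherin gene Cdh1 stayed at or below 0.553 and 0.676 CPM. The 10 fibroblast markers were mixed as well. Pdgfra stood at 118 to 180 CPM, Pdgfrb at 89.1 to 126 CPM and Acta2 at 24 to 45.5 CPM. Col1a1 was at 9.27 to 19 CPM, Dcn at 9.9 to 18.4 CPM and S100a4 at 0.514 to 5.72 CPM. Col1a2, Fap, Lum and Thy1 stayed at or below 0.922, 0.783, 0.534 and 0.0931 CPM. The pan-leukocyte gene Ptprc was at 0 to 0.296 CPM. The summed level of 15 macrophage and dendritic cell markers ran from 51.8 to 54.7 CPM with Malt1_WT, 56.8 to 61.9 CPM with Malt1_PD, 35.9 to 38.1 CPM with Malt1_V87R and 38.2 to 59.6 CPM with Malt1_L88D, against 37.6 to 40.8 CPM with the vector, mostly Cd68, Fcer1g and Lyz2, and its part in the results below was not tested. None of the 15 was at 0 in all libraries, and 8 passed the filter on low counts. Of these 8, 4 rose and 1 fell in Malt1_WT against the vector, where 27.2% of all tested genes rose and 27.7% fell. In Malt1_PD 7 rose and 1 fell (22.8% and 22.0% of all genes). In Malt1_L88D 3 rose (8.96% of all genes rose and 8.43% fell), and in Malt1_V87R none was called (7.01% and 4.70%). Adgre1 is among the rises in Malt1_WT, Malt1_PD and Malt1_L88D. It stayed at or below 0.245 CPM with the vector and 0.201 CPM with Malt1_V87R, under the filter's minimum of 0.525 CPM. It thus passed through groups in which it was higher. Its Malt1_L88D libraries (0.063 to 0.887 CPM) overlapped those of the vector. Of 12 T and NK cell genes, Cd2 and Ncr1 had 0 counts, and Lck (1.37 to 3.4 CPM) was the 1 that passed the filter. Lck rose 1.70-fold in Malt1_WT against the vector (edgeR adjusted p = 0.0043) and was not called with the other constructs. In bulk RNA, fewer cells of a type and less RNA per cell cannot be told apart.

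The start regions of 5 of the genes were available from RefSeq (GRCm38.p6), as 6 windows of 250 bases before to 50 after a transcription start. Those of Dusp5 and Etv5 are shown because the genes moved in opposite directions between the same groups, and that of Spry2 because it is the other one with a motif match. Capitals mark matches to 7 motifs searched on both strands: the ETS core CCGGAA, AP-1 TGANTCA, CRE TGACGTCA, EGR GCGNGGGCG, TATAAA, and, by name, the kappaB consensus and the CArG box bound by SRF, the serum response factor. The Dusp5 window (chr19:53528895-53529194, plus strand), the Spry2 window (chr14:105896770-105897069, minus strand) and the first of 2 Etv5 windows (chr16:22439521-22439820, minus strand) read, 5′ to 3′:
Dusp5: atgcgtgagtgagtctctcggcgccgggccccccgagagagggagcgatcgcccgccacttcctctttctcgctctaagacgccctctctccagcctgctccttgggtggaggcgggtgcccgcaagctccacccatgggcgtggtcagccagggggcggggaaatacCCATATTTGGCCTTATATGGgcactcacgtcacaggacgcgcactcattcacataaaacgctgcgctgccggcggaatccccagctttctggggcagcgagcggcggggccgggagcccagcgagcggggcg
Spry2: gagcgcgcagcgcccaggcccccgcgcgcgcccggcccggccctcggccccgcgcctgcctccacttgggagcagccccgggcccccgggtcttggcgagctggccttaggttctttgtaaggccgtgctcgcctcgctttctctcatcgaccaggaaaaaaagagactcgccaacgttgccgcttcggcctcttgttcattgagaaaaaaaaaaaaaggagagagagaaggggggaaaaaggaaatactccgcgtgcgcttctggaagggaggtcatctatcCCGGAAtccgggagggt
Etv5: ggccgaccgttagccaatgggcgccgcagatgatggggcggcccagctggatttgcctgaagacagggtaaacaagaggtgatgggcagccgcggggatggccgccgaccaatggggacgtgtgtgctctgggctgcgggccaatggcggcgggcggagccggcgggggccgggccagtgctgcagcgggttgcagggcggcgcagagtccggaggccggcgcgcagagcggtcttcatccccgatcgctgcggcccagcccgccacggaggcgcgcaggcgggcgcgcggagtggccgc
The Dusp5 window held a pair of adjoining CArG boxes, CCATATTTGG from 82 to 73 and CCTTATATGG from 72 to 63 bases before the start, which did not overlap each other or another motif. A CArG box occurred in 1.63% of 32851 promoter windows of the same length. The Spry2 window held 1 ETS core, which begins 34 bases after the start, a motif found in 14.9% of windows. The windows of Etv5, Dusp6 and Spred1 held no match to any of the 7 motifs, and AP-1 (7.81% of windows), CRE (1.79%), EGR (5.55%), kappaB (8.46%) and TATAAA (13.6%) matched in none of the 6 windows. These are descriptions of letters in the reference, and no binding was measured.

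Among the 10 genes, 7 rose and 1 fell in Malt1_WT cells against the vector, and the same counts of 7 and 1 were reached in Malt1_PD cells. Dusp4, Dusp5, Dusp6, Spry2, Spry4 and Phlda1 rose and Etv5 fell in both, and the seventh rise was Egr1 in Malt1_WT and Etv4 in Malt1_PD. Egr1 had passed the filter on low counts through Malt1_WT and Malt1_PD libraries alone. Over all 14571 genes tested, 27.2% were called higher and 27.7% lower in Malt1_WT (54.9% in all), and 22.8% higher and 22.0% lower in Malt1_PD (44.8% in all) (an adjusted p under 0.05 over all genes by the quasi-likelihood test of edgeR). The median log2 fold change of the 10 genes was 0.58 in Malt1_WT and 0.39 in Malt1_PD, where the medians over all tested genes were -0.01 and 0.00. In Malt1_V87R cells 2 rose and 1 fell (7.01% and 4.70% of all genes, 11.7% together), and in Malt1_L88D cells 3 rose and 0 fell (8.96% and 8.43%, 17.4% together), with medians of 0.04 and 0.09. These 4 comparisons share the vector libraries.

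**Figure D1:**
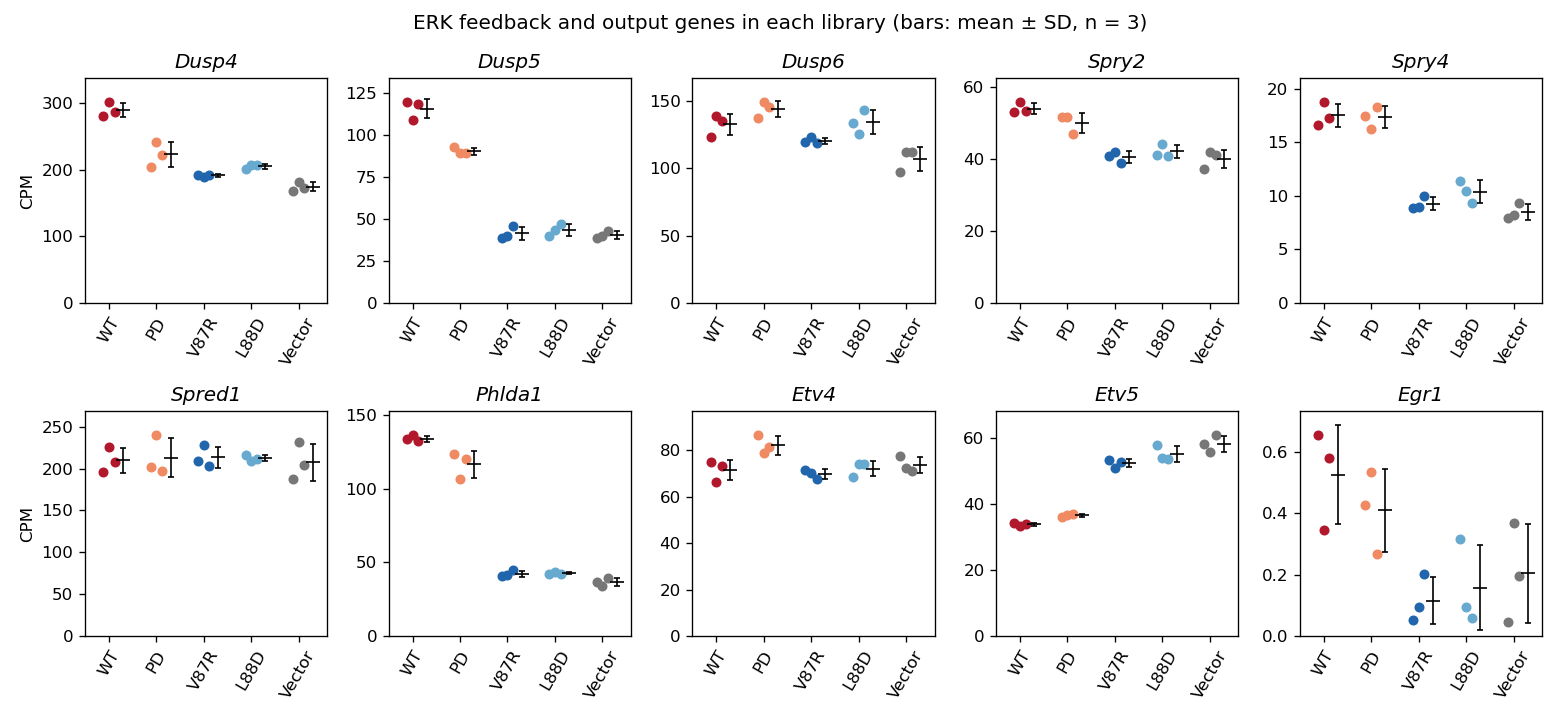
Levels of the 10 genes, 1 panel each, as CPM on an axis that starts at 0. Each point is 1 library of the Malt1_WT, Malt1_PD, Malt1_V87R, Malt1_L88D or vector group and the bars give mean ± SD (n = 3); Dusp5 and Phlda1 stand high in Malt1_WT and Malt1_PD, Etv5 stands low there, and Spred1 overlaps in all 5 groups.

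The phosphatase genes did not move by like amounts. Dusp5 (chromosome 19, 53529109 to 53542431, plus strand) encodes a nuclear phosphatase specific for ERK. It was at 120, 109 and 118 CPM with Malt1_WT, 93.0, 89.2 and 89.6 CPM with Malt1_PD, 38.6, 39.9 and 46.0 CPM with Malt1_V87R and 40.1, 43.3 and 47.2 CPM with Malt1_L88D, against 38.5, 40.2 and 42.9 CPM with the vector. Every Malt1_WT and Malt1_PD library lay above every other library, and the Malt1_V87R and Malt1_L88D libraries overlapped the vector. Its log2 fold change against the vector was 1.51 ± 0.06 (SE) in Malt1_WT (2.86-fold, edgeR adjusted p = 4.3e-18) and 1.16 ± 0.06 in Malt1_PD (2.24-fold, adjusted p = 3.5e-15). In Malt1_V87R it was 0.03, with a 95% interval from -0.10 to 0.17, and in Malt1_L88D 0.10, from -0.03 to 0.24. Among the genes whose start regions were available, Dusp5 was the one with the paired CArG boxes shown above. The other members were not searched, and any part of the boxes in these levels was not tested.

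Dusp4 (chromosome 8, 34807297 to 34819894, plus strand) encodes another nuclear, inducible phosphatase, which acts on ERK and also on JNK and p38. It was at 280, 301 and 286 CPM with Malt1_WT, 204, 241 and 222 CPM with Malt1_PD, 192, 189 and 192 CPM with Malt1_V87R and 201, 207 and 207 CPM with Malt1_L88D, against 168, 181 and 173 CPM with the vector. Each construct's libraries lay above the vector's. The change was 0.73 ± 0.05 (SE) on the log2 scale in Malt1_WT (adjusted p = 8.4e-14), 0.36 ± 0.05 in Malt1_PD (adjusted p = 2.7e-07) and 0.24 ± 0.05 in Malt1_L88D (adjusted p = 0.00055). In Malt1_V87R the value of 0.14 ± 0.05 missed the threshold (adjusted p = 0.056) and passed it under 4 of 13 alternatives (adjusted p from 0.013 to 0.22), namely no filter on low counts, the 6 compared libraries alone, the replicate block (adjusted p = 0.013) and leaving out vector replicate 2 (0.16).

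Dusp6 (chromosome 10, 99263231 to 99267489, plus strand) encodes the cytoplasmic ERK phosphatase and, like Phlda1, was called higher with all 4 constructs. Its libraries were at 124, 139 and 135 CPM with Malt1_WT, 138, 149 and 145 CPM with Malt1_PD, 119, 123 and 119 CPM with Malt1_V87R and 134, 126 and 143 CPM with Malt1_L88D, against 97.0, 112 and 112 CPM with the vector. The Malt1_WT and Malt1_L88D libraries overlapped, at means of 133 ± 8.07 and 134 ± 8.72 CPM. The rises were 1.24-fold in Malt1_WT (adjusted p = 3.9e-05), 1.35-fold in Malt1_PD (adjusted p = 4.2e-07), 1.25-fold in Malt1_L88D (adjusted p = 0.00013) and 1.13-fold in Malt1_V87R (adjusted p = 0.048).

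The Sprouty genes encode inducible inhibitors that act between receptors and RAF. Spry4 (chromosome 18, 38586247 to 38601415, minus strand) was at 16.6, 18.7 and 17.3 CPM with Malt1_WT, 17.4, 16.3 and 18.3 CPM with Malt1_PD, 8.89, 8.93 and 10.03 CPM with Malt1_V87R and 11.4, 10.4 and 9.29 CPM with Malt1_L88D, against 7.90, 8.17 and 9.31 CPM with the vector. The first 2 groups overlapped each other and stood apart from the rest, with 2.07-fold and 2.05-fold rises over the vector (adjusted p = 3.6e-10 and 5.4e-10). In Malt1_L88D the value was 0.29 ± 0.11 (SE) on the log2 scale (adjusted p = 0.054), which passed the threshold under 3 of 13 alternatives (adjusted p from 0.034 to 0.22). Those were the replicate block (adjusted p = 0.048) and leaving out Malt1_L88D replicate 3 (0.37 on the log2 scale) or vector replicate 3 (0.38).

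Spry2 (chromosome 14, 105891947 to 105896819, minus strand) moved less, to 54.0 ± 1.46 CPM with Malt1_WT and 49.97 ± 2.77 CPM with Malt1_PD, beside 40.5 ± 1.64 CPM with Malt1_V87R and 42.1 ± 1.86 CPM with Malt1_L88D, against 40.1 ± 2.52 CPM with the vector. The rises were 1.35-fold in Malt1_WT (adjusted p = 4.7e-07) and 1.25-fold in Malt1_PD (adjusted p = 5.4e-05). Spred1 (chromosome 2, 117121374 to 117182279, plus strand), which encodes a membrane-bound partner of the RAS inhibitor neurofibromin, had groups that overlapped throughout. Its means were 210 ± 15.1 CPM with Malt1_WT, 213 ± 23.3 CPM with Malt1_PD, 213 ± 12.9 CPM with Malt1_V87R and 213 ± 3.97 CPM with Malt1_L88D, against 208 ± 21.9 CPM with the vector. Its 4 differences from the vector lay between 0.02 and 0.04 on the log2 scale, with 95% intervals that reached from -0.17 to 0.23, and none of its 10 pairwise comparisons was called.

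Phlda1 (chromosome 10, 111506286 to 111508645, plus strand), which encodes a pleckstrin homology-like protein of growth factor and stress responses, had the largest fold change of the 10 genes against the vector in Malt1_WT and in Malt1_PD. It was at 133, 136 and 132 CPM with Malt1_WT, 124, 106 and 120 CPM with Malt1_PD, 41.0, 41.3 and 44.7 CPM with Malt1_V87R and 41.9, 43.1 and 42.1 CPM with Malt1_L88D, against 36.4, 33.7 and 39.5 CPM with the vector. The libraries of all 4 constructs lay above those of the vector. It rose 3.65-fold in Malt1_WT (adjusted p = 6e-21) and 3.18-fold in Malt1_PD (adjusted p = 1.7e-19), and in Malt1_V87R and Malt1_L88D it rose 1.16-fold each (adjusted p = 0.025 and 0.019). The Malt1_V87R call was lost under 3 of 13 alternatives (adjusted p from 0.0088 to 0.13): without Malt1_V87R replicate 3 (0.17 on the log2 scale) and without vector replicate 1 (0.21) or 2 (0.15). The Malt1_L88D call was lost without Malt1_L88D replicate 2 (0.20) and without vector replicate 1 (0.22) or 2 (0.16), with adjusted p from 0.0065 to 0.086 over its alternatives.

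The 3 output transcription factor genes differed among themselves. Etv5 (chromosome 16, 22381309 to 22439719, minus strand) encodes a PEA3-group ETS factor whose mRNA is a standard readout of FGF and ERK signalling. It was lower, at 34.2, 33.3 and 34.0 CPM with Malt1_WT, 36.0, 36.5 and 36.9 CPM with Malt1_PD, 53.3, 50.9 and 52.7 CPM with Malt1_V87R and 57.7, 53.9 and 53.5 CPM with Malt1_L88D, against 58.0, 55.7 and 60.7 CPM with the vector. Malt1_WT and Malt1_PD libraries were below every other library. The log2 fold change was -0.78 ± 0.05 (SE) in Malt1_WT (0.581 of the vector level, adjusted p = 5.3e-13) and -0.68 ± 0.05 in Malt1_PD (0.626 of it, adjusted p = 1.2e-11). In Malt1_V87R it fell to 0.898 of the vector level (adjusted p = 0.044), and in Malt1_L88D its 95% interval ran from -0.19 to 0.02.

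Etv4 (chromosome 11, 101769742 to 101785371, minus strand), the closest relative of Etv5 in this set, was at 74.7, 66.4 and 73.2 CPM with Malt1_WT, 86.3, 78.6 and 81.2 CPM with Malt1_PD, 71.6, 70.3 and 67.6 CPM with Malt1_V87R and 68.2, 73.9 and 73.9 CPM with Malt1_L88D, against 77.5, 72.4 and 70.8 CPM with the vector. It was higher in Malt1_PD, by 0.16 ± 0.05 (SE) over the vector (adjusted p = 0.018), and the 3 Malt1_PD libraries lay above the rest. The call was lost without Malt1_PD replicate 1 (0.13, adjusted p = 0.076) or vector replicate 3 (0.14, adjusted p = 0.068), the other alternatives reaching down to 0.0052. Against the vector the other constructs gave values between -0.08 and -0.03, none of them called.

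Egr1 (chromosome 18, 34859823 to 34864984, plus strand), a zinc-finger factor that is among the earliest genes switched on by ERK, was barely detected. It had 10, 6 and 9 counts in Malt1_WT, 8, 9 and 5 counts in Malt1_PD, 1, 2 and 4 counts in Malt1_V87R and 5, 2 and 1 counts in Malt1_L88D, against 1, 6 and 4 counts with the vector. Malt1_WT and vector libraries touched at 6 counts. The gene entered the test with 3 libraries at or above the minimum of 0.525 CPM, 2 of Malt1_WT and 1 of Malt1_PD, so that it passed through the groups in which it was higher. The call in Malt1_WT against the vector (2.67-fold, adjusted p = 0.047) was lost under 7 of 12 alternatives, with adjusted p from 0.017 to 0.23. Those were DESeq2, no filter on low counts, the replicate block, and leaving out Malt1_WT replicate 1 (1.25 on the log2 scale) or 3 (1.35) or vector replicate 1 (0.92) or 3 (1.45).

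**Figure D2:**
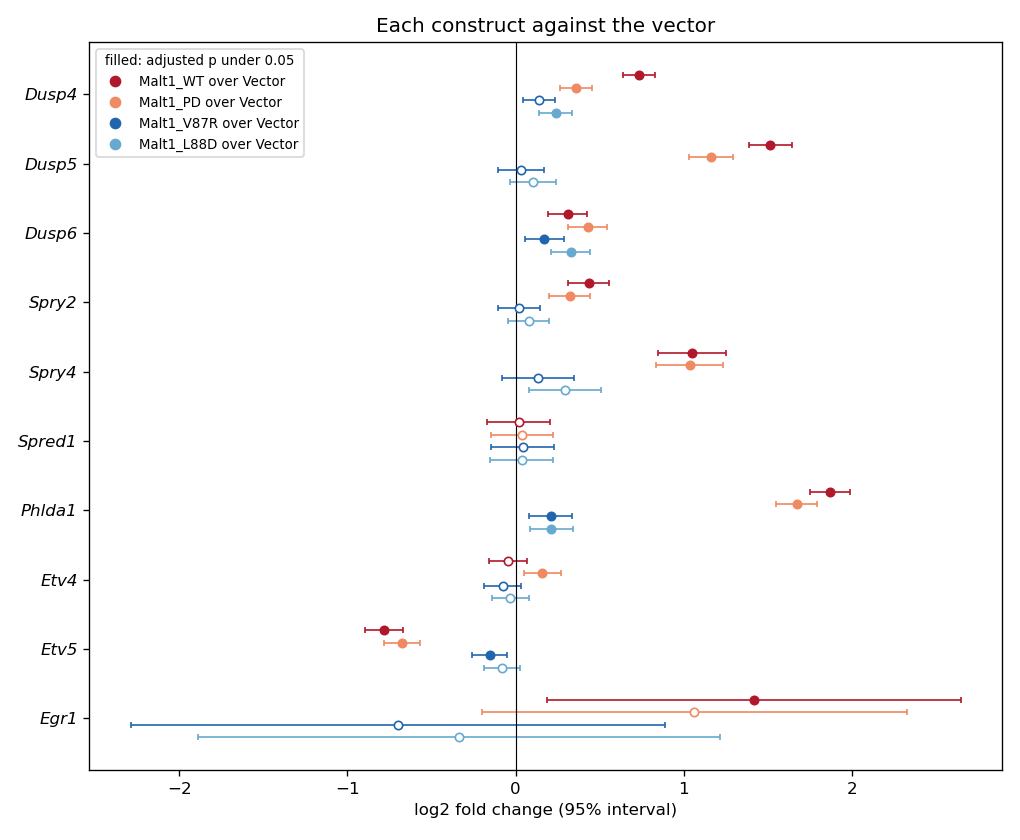
Log2 fold change of each of the 10 genes against the vector with its 95% interval, for Malt1_WT, Malt1_PD, Malt1_V87R and Malt1_L88D. Filled points had an adjusted p under 0.05; Phlda1 and Dusp5 lie farthest to the right in Malt1_WT and Malt1_PD, Etv5 lies to the left of 0, and the intervals of Egr1 are the widest.

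The calls in Malt1_V87R against the vector rested on small differences. They were Dusp6, Phlda1 and Etv5 in the main test, and the count of 3 fell to 1 with DESeq2, to 1 without Malt1_V87R replicate 1 or 2, and to 0 without Malt1_V87R replicate 3 or vector replicate 1. Etv5 was no longer called under 8 of 13 alternatives (adjusted p from 0.023 to 0.25), among them leaving out Malt1_V87R replicate 1 (-0.17 on the log2 scale), 2 (-0.13) or 3 (-0.16) or vector replicate 1 (-0.16) or 3 (-0.12). Dusp6 was no longer called under 6 of 13 (adjusted p from 0.0078 to 0.32), among them leaving out Malt1_V87R replicate 1 (0.18), 2 (0.16) or 3 (0.18) or vector replicate 1 (0.10). Vector replicate 1 had the lowest Dusp6 level of the 15 libraries.

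Levels per kilobase of exon set the genes in order. With the vector, Dusp4 was highest at 63.4 CPM per kb, followed by Dusp6 at 34.2, Spred1 at 30.6, Etv4 at 23.7, Spry2 at 19.2, Phlda1 at 16.6, Dusp5 at 16.4, Etv5 at 14.2, Spry4 at 1.78 and Egr1 at 0.0454 CPM per kb. In Malt1_WT the order began with Dusp4 at 105 CPM per kb, Phlda1 at 60.7, Dusp5 at 46.8 and Dusp6 at 42.4 CPM per kb, and Etv5 was at 8.25 CPM per kb. Phlda1 and Dusp5 thus stood next to each other in both groups, below Spry2 with the vector and above Dusp6 in Malt1_WT.

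The comparison of Malt1_PD with Malt1_WT asked which of these genes differ between the 2 forms that moved them most. Of the 10, 1 was higher and 3 were lower in Malt1_PD, where 12.6% of all genes were higher and 10.7% lower (23.3% in all). Dusp4 was at 223 ± 18.6 CPM with Malt1_PD and 289 ± 10.6 CPM with Malt1_WT (log2 difference -0.38 ± 0.05 SE, adjusted p = 4.7e-07). Dusp5 was at 90.6 ± 2.08 CPM with Malt1_PD and 116 ± 5.59 CPM with Malt1_WT (-0.35 ± 0.06 SE, adjusted p = 5.1e-05). Phlda1 was at 117 ± 9.06 CPM with Malt1_PD and 134 ± 1.99 CPM with Malt1_WT (-0.20 ± 0.05 SE, adjusted p = 0.0075). In these 3 genes the libraries of the 2 groups did not overlap.

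Etv4 was the member higher in Malt1_PD than in Malt1_WT, by 0.20 ± 0.05 (SE) on the log2 scale (adjusted p = 0.0074), a call lost without Malt1_WT replicate 2 (0.14) or Malt1_PD replicate 1 (0.16), with adjusted p from 0.0012 to 0.096 over its alternatives. The other members missed the threshold. The 95% interval of the difference ran from -0.20 to 0.17 for Spry4, from -0.23 to 0.01 for Spry2, from 0.00 to 0.23 for Dusp6, from -0.01 to 0.23 for Etv5, from -0.17 to 0.21 for Spred1 and from -1.43 to 0.72 for Egr1. For Spry4 the means were 17.3 ± 1.02 CPM with Malt1_PD and 17.5 ± 1.09 CPM with Malt1_WT.

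**Figure D3:**
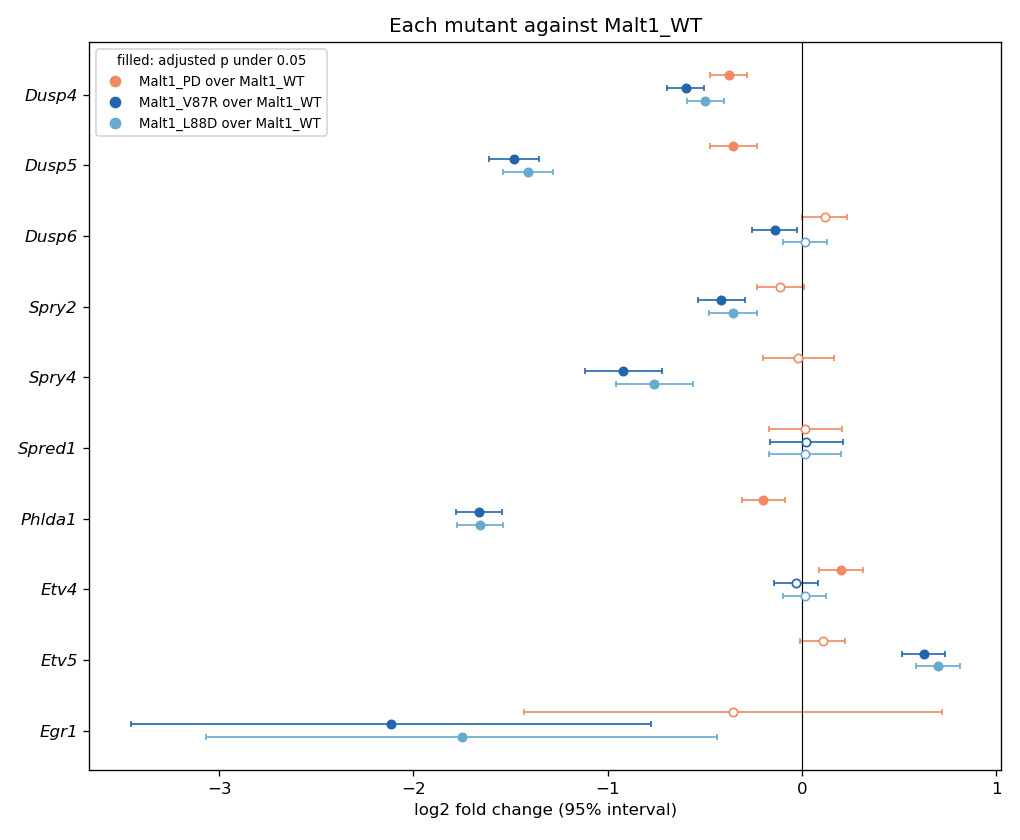
Log2 fold change of each of the 10 genes against Malt1_WT with its 95% interval, for Malt1_PD, Malt1_V87R and Malt1_L88D. Filled points had an adjusted p under 0.05; in Malt1_V87R and Malt1_L88D Dusp5 and Phlda1 lie more than 1 unit to the left and Etv5 to the right of 0, while in Malt1_PD Dusp4, Dusp5 and Phlda1 lie less than 1 unit to the left.

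The comparison of the death-domain mutants with Malt1_WT gave 1 higher and 7 lower members in Malt1_V87R (24.9% and 23.4% of all genes, 48.3% together) and 1 higher and 6 lower in Malt1_L88D (22.8% and 22.3%, 45.1% together). Phlda1 was at 0.316 of the Malt1_WT level in Malt1_V87R and 0.317 of it in Malt1_L88D, and Dusp5 at 0.358 and 0.376 of it. Spry4 was at 0.529 and 0.591, Dusp4 at 0.661 and 0.709 and Spry2 at 0.750 and 0.781 of the Malt1_WT level in Malt1_V87R and Malt1_L88D, with edgeR adjusted p of at most 1.4e-05. Etv5 was the higher member, 1.55-fold in Malt1_V87R and 1.63-fold in Malt1_L88D. Egr1, at 1 to 10 counts per library, was called lower in both. It had passed the filter through Malt1_WT and Malt1_PD libraries alone, so these calls draw on libraries that let it into the test. Its call in Malt1_L88D was lost under 6 of 12 alternatives (adjusted p from 0.010 to 0.11). Of those, 4 left out Malt1_WT replicate 1 (-1.58) or 3 (-1.68) or Malt1_L88D replicate 2 (-1.48) or 3 (-1.42). Dusp6 was called lower in Malt1_V87R (0.908 of the Malt1_WT level, adjusted p = 0.041), a call lost under 5 of 13 alternatives (adjusted p from 0.0045 to 0.13): DESeq2, and leaving out Malt1_WT replicate 2 (-0.12) or 3 (-0.14) or Malt1_V87R replicate 1 (-0.15) or 3 (-0.15). In Malt1_L88D it was at 1.01 of the Malt1_WT level, with a 95% interval of the log2 difference from -0.10 to 0.13.

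Set against Malt1_PD, 1 member was higher and 8 were lower in Malt1_V87R (20.4% and 21.1% of all genes, 41.5% together), and 1 was higher and 6 lower in Malt1_L88D (20.0% and 21.4%, 41.4% together). Dusp5 was at 0.458 of the Malt1_PD level in Malt1_V87R and at 0.481 of it in Malt1_L88D, Phlda1 at 0.363 and 0.364, and Spry4 at 0.535 and 0.598. The higher member was again Etv5, 1.43-fold and 1.51-fold. Etv4 was lower in both, at 0.851 of the Malt1_PD level in Malt1_V87R (adjusted p = 0.00076) and 0.878 of it in Malt1_L88D (adjusted p = 0.0058). Dusp4 in Malt1_L88D (0.920 of the Malt1_PD level, adjusted p = 0.039) overlapped Malt1_PD and was lost under 8 of 13 alternatives (adjusted p from 0.0013 to 0.28), among them leaving out Malt1_PD replicate 2 (-0.06) or 3 (-0.12) or Malt1_L88D replicate 1 (-0.11), 2 (-0.13) or 3 (-0.13). Egr1, which had passed the filter through Malt1_WT and Malt1_PD libraries alone, was called lower in Malt1_V87R against Malt1_PD (adjusted p = 0.036). That call was lost under 6 of 12 alternatives (adjusted p from 0.026 to 0.13). Of those, 4 left out Malt1_PD replicate 1 (-1.74) or 2 (-1.55) or Malt1_V87R replicate 1 (-1.45) or 2 (-1.64). In Malt1_L88D against Malt1_PD, Egr1 was called without Malt1_L88D replicate 1 alone (-2.27, adjusted p = 0.033, with a range from 0.033 to 0.27), and Dusp6 without Malt1_L88D replicate 3 alone (-0.15, adjusted p = 0.046, with a range from 0.046 to 0.51).

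Between Malt1_V87R and Malt1_L88D, edgeR called 0 of the 10 genes and 0 of all 14571 (0%), and DESeq2 and limma-voom also called 0. With no difference between the groups, a share of 0.05 of all genes would be expected to have an unadjusted p under 0.05. There were 852 of the 14571, 2 of them members. Those were Dusp4, at 191 ± 2.02 CPM with Malt1_V87R and 205 ± 3.63 CPM with Malt1_L88D, and Dusp6, at 120 ± 2.31 CPM with Malt1_V87R and 134 ± 8.72 CPM with Malt1_L88D, named after their values were seen. The 95% interval of the log2 difference was -0.13 to 0.12 for Phlda1, -0.21 to 0.07 for Dusp5, -0.18 to 0.03 for Etv5 and -0.37 to 0.05 for Spry4.

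Several genes shared the order of the groups by mean level. For Dusp4, Dusp5 and Phlda1 it ran from Malt1_WT through Malt1_PD to Malt1_L88D, Malt1_V87R and the vector, and the differences of Malt1_WT from Malt1_PD and of Malt1_PD from Malt1_L88D were called in each, with overlapping libraries for Dusp4 in the second. For Spry2 and Spry4 it was the same, but neither Malt1_WT and Malt1_PD nor the other 3 groups among themselves were called different. For Dusp6 the order began with Malt1_PD, Malt1_L88D and Malt1_WT, no neighbours of which were called different. Etv5 ran from the vector, the highest, through Malt1_L88D, Malt1_V87R and Malt1_PD to Malt1_WT, the lowest. In none of these genes were Malt1_L88D and Malt1_V87R called different, so their order is by mean alone.

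The wider pathway was described through lists of genes with related roles, whose counts stand beside 27.2% of all tested genes higher and 27.7% lower in Malt1_WT against the vector, 22.8% and 22.0% in Malt1_PD, 7.01% and 4.70% in Malt1_V87R, and 8.96% and 8.43% in Malt1_L88D. Of 26 genes of the RAS-RAF-MEK-ERK cascade, 8 rose and 12 fell in Malt1_WT and 7 rose and 11 fell in Malt1_PD against the vector, with a median log2 fold change of -0.06 in Malt1_WT. The 8 rises in Malt1_WT were thus near the share of all genes that rose. The 12 falls in Malt1_WT and the 11 in Malt1_PD were above the shares of all genes that fell (27.7% and 22.0%). Mapk3, which encodes ERK1, was at 48.1 ± 2.04 CPM with Malt1_WT and 76.9 ± 2.19 CPM with the vector (0.624 of the vector level, adjusted p = 7.9e-12). Map2k1, which encodes MEK1, was at 279 ± 5.22 CPM with Malt1_WT and 184 ± 8.25 CPM with the vector (1.51-fold, adjusted p = 7.9e-14), and the scaffold gene Ksr1 rose 1.64-fold. Rras2, a RAS-related GTPase gene, fell to 0.667 of the vector level. In Malt1_V87R 4 of the 26 rose and 3 fell, and in Malt1_L88D 4 rose and 4 fell.

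Of 9 other dual-specificity phosphatase genes tested, 5 rose and 1 fell in Malt1_WT (median 0.42), and 7 rose and 1 fell in Malt1_PD (median 0.59). None rose in Malt1_V87R or Malt1_L88D, and 2 fell in each. In Malt1_WT, 6 of these 9 were thus called in either direction, where 54.9% of all genes were. Dusp1, an immediate-early phosphatase of p38, JNK and ERK, was at 105 ± 2.51 CPM with Malt1_WT, 98.2 ± 3.13 CPM with Malt1_PD, 30.4 ± 4.64 CPM with Malt1_V87R and 31.7 ± 3.21 CPM with Malt1_L88D, against 43.3 ± 2.18 CPM with the vector. It was thus called higher in the first 2 groups and lower in Malt1_V87R and Malt1_L88D. Dusp14 rose 2.10-fold, Dusp3 1.80-fold and Dusp16, a phosphatase of JNK and p38, 1.57-fold in Malt1_WT. Among 8 tested Sprouty, Spred and other inducible inhibitor genes, 5 rose and 2 fell in Malt1_WT and 4 rose and 2 fell in Malt1_PD. Errfi1, an inhibitor of the EGF receptor, was at 139 ± 3.34 CPM with Malt1_WT, 154 ± 5.12 CPM with Malt1_PD, 76.3 ± 2.51 CPM with Malt1_V87R and 77.9 ± 2.80 CPM with Malt1_L88D, against 69.8 ± 2.85 CPM with the vector. Cblb and Rasa2 rose 1.75-fold and 1.58-fold and Lrig1 fell to 0.764 of the vector level in Malt1_WT.

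Of 25 other genes known to be transcribed downstream of ERK, 17 rose and 3 fell in Malt1_WT (median 0.71) and 18 rose and 3 fell in Malt1_PD (median 0.39). In Malt1_V87R 6 rose and 6 fell, and in Malt1_L88D 8 rose and 6 fell. The cytokine gene Lif was at 298 ± 11.5 CPM with Malt1_WT, 228 ± 9.68 CPM with Malt1_PD, 32.0 ± 1.87 CPM with Malt1_V87R and 37.8 ± 3.41 CPM with Malt1_L88D, against 23.8 ± 3.70 CPM with the vector. Hbegf, an EGF receptor ligand, was at 125 ± 1.77 CPM with Malt1_WT, 139 ± 5.95 CPM with Malt1_PD, 40.1 ± 2.59 CPM with Malt1_V87R and 42.1 ± 4.85 CPM with Malt1_L88D, against 34.2 ± 2.10 CPM with the vector. Ier3 and the urokinase receptor gene Plaur rose 3.17-fold and 2.69-fold in Malt1_WT. Many genes of this list are also known targets of NF-kB or AP-1.

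Of 10 genes for serum response, ternary complex and other ETS factors, 5 rose and 1 fell in Malt1_WT and 5 rose and 2 fell in Malt1_PD. Ets1 was at 676 ± 15.1 CPM with Malt1_WT and 316 ± 18.1 CPM with the vector (2.14-fold, adjusted p = 5.3e-19), and Ets2 rose 1.48-fold. The ETS repressor genes Etv3 and Erf went opposite ways, Etv3 at 71.8 ± 1.86 CPM with Malt1_WT and 43.2 ± 1.56 CPM with the vector, and Erf at 72.2 ± 5.95 CPM with Malt1_WT and 109 ± 5.11 CPM with the vector (0.659 of it, adjusted p = 5.3e-11).

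**Figure D4:**
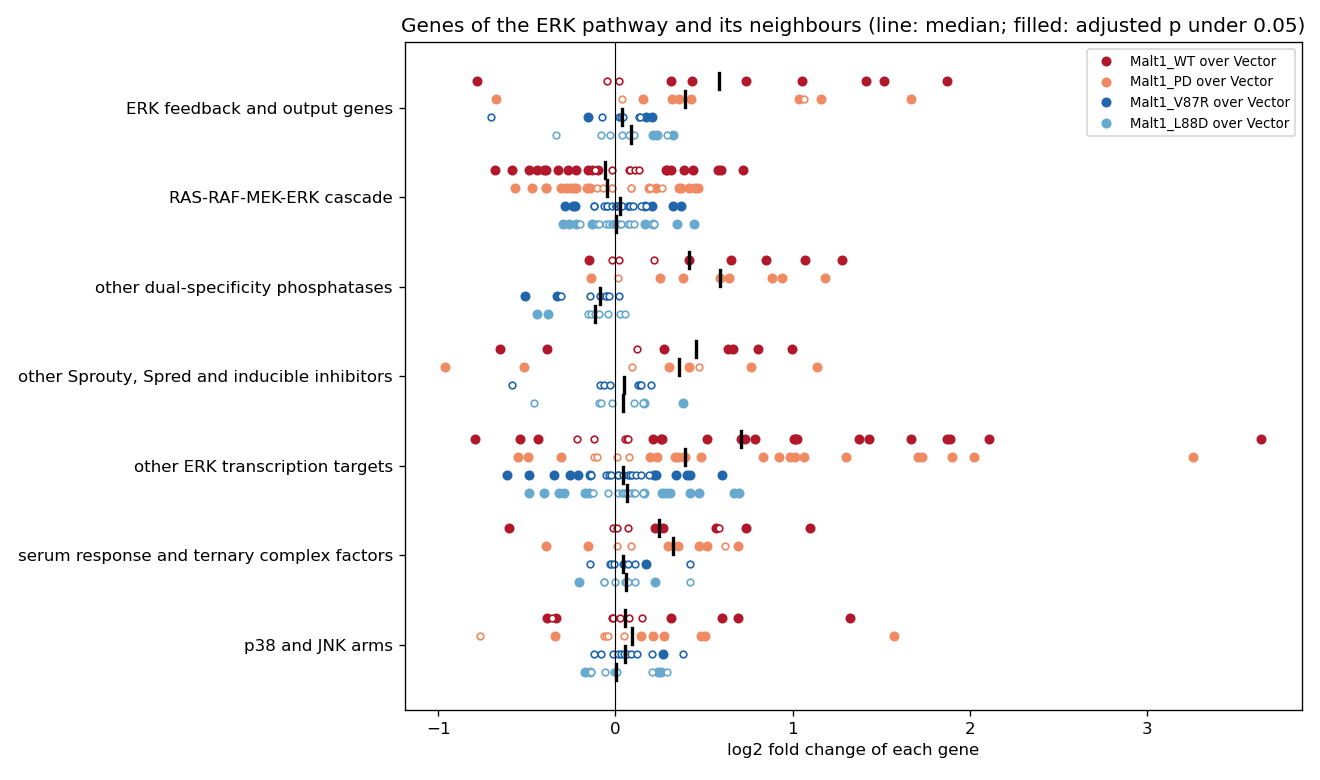
Log2 fold change against the vector of every tested gene in the ERK feedback and output set and in 6 related lists, for Malt1_WT, Malt1_PD, Malt1_V87R and Malt1_L88D. Filled points had an adjusted p under 0.05 and black lines are medians; for Malt1_WT the median is 0.58 in the ERK feedback and output set, 0.71 for the other ERK transcription targets and -0.06 for the cascade genes.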

How the data were processed

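E0771 libraries were stranded, made from total RNA and read as paired ends of 150 bp, per the labels' protocols. The authors deposited raw counts per gene symbol, 1 column per library. The submitters' processing notes name STAR 2.7.3a, Trim Galore 0.6.0, the counter featureCounts 1.6.3 and the build GRCm38.p6. Which annotation release, strand setting and handling of multi-mapping reads the authors used is not stated in the labels or files, so genes on opposite strands could share reads. The transcripts that GENCODE M21 places opposite Dusp5, Spry4 and Phlda1 had at most 4 counts per library. Without the strand setting, these counts cannot show whether reads in the overlaps went to the members, the other transcripts or neither.

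The tests used edgeR 4.0.16 in R 4.3.3. After filterByExpr by group, 14571 genes were left, including the 10 members, and all 15 libraries were fitted together (robust quasi-likelihood, TMM factors 0.9732 to 1.0153) for 10 two-sided comparisons with Benjamini-Hochberg adjustment over all genes. SE is the log2 fold change over the square root of F, and intervals are at 95%. The script was tested on simulated data. The alternatives were RLE and upper-quartile scaling, DESeq2 1.42.0, limma-voom (limma 3.58.1), no filter, the 6 compared libraries alone, a replicate block and leaving out each library. Positions and exon lengths come from GENCODE M21 (GRCm38). Members, lists and comparisons were chosen with earlier results of these data known. Named genes were the 10 members, Malt1, up to 4 called genes per list with the smallest adjusted p in Malt1_WT against the vector, and for each member the gene of at least 5 CPM with the most similar pattern. Cell type markers and a few genes with small counts of calls were named outside that rule.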

Additional observations from a re-analysis of the deposited data

How the results depend on the processing

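Of 100 results (10 genes in 10 comparisons), 57 passed the threshold, 46 of them under every alternative run and 11 not. No called value changed sign, and 49 alternative values of results called in neither setting did. The labels do not say that a replicate number marks a shared culture or batch, and deviations from group means of same-numbered libraries correlated at -0.07 to 0.233, so the libraries were not treated as paired. As a hint from the data, 10 of 15 libraries correlated best with their own number, where 5 would if all numbers were equally likely. With the replicate block, 7 members were called in Malt1_WT against the vector (56.9% of all genes in that fit), 8 in Malt1_PD (47.1%) and 4 each in Malt1_V87R (14.7%) and Malt1_L88D (20.8%). Set against Malt1_WT, Malt1_PD had 4 (26.5%), Malt1_V87R 8 (50.6%) and Malt1_L88D 7 (47.3%). Set against Malt1_PD, Malt1_V87R had 9 (43.8%) and Malt1_L88D 7 (43.5%). Between Malt1_V87R and Malt1_L88D there were 0.

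The number called in Malt1_V87R against the vector, 3, was 1 with DESeq2 (11.6% of genes with an adjusted p) and from 0 to 3 when 1 library was left out (the cause was not tested). The other 9 numbers stayed within 1.5 times their value under every alternative. With 100 bases before the start searched in place of the whole window, the Spry2 ETS core was no longer covered and the Dusp5 CArG boxes were. At 1 to 10 counts per library, the depth limits what can be said of Egr1.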

Other observations

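The p38 and JNK arms run beside ERK. Of 12 of their genes tested, 4 rose and 2 fell in Malt1_WT against the vector, near the 54.9% of all genes called there. In Malt1_PD 6 rose and 1 fell, where 22.8% of all genes rose and 22.0% fell. The medians were 0.05 in Malt1_WT and 0.10 in Malt1_PD on the log2 scale. Mapk8, which encodes JNK1, rose 1.52-fold in Malt1_WT, while Mapk14, which encodes p38 alpha, fell to 0.792 and Map2k3, its upstream kinase, to 0.766 of the vector level. Map2k7, a kinase upstream of JNK, rose 1.24-fold.

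For each member, the gene outside the set whose log2 CPM followed it most closely over the 15 libraries was taken from 9393 genes of at least 5 CPM. The libraries share 5 groups, so these are measures of likeness without a test. Phlda1 was followed most closely by Odc1 (Pearson r = 0.998), which encodes the rate-limiting enzyme of polyamine synthesis. Dusp5 was nearest to Srxn1 (0.994), which encodes sulfiredoxin, and Etv5 to Ctdsp2 (0.994). Dusp4 was nearest to Plekhh1 (0.987), Spry4 to Osbp2 (0.983) and Spry2 to Btg3 (0.974), an antiproliferative gene. Spred1, Dusp6, Etv4 and Egr1 had less close neighbours, in Nckap1 (0.939), Sema3a (0.922), Pex19 (0.903) and Foxj3 (0.898).

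The 3′ UTR of Phlda1 (612 bases in GENCODE M21) carried 3 copies of the pentamer ATTTA, or 4.90 per kb, more than 93.2% of 20196 genes with a 3′ UTR of at least 100 bases. Spred1 had 12 copies (2.77 per kb), Spry2 2 copies (2.34 per kb) and Etv5 5 copies (2.31 per kb), and Etv4 had 0. Dusp5 and Dusp6 had 1 copy each (0.90 and 0.84 per kb), below the median of 1.26 per kb over all genes. Message stability was not measured.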
